A study of Bos taurus with 8 samples.

Results

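The 10 genes described here encode protein kinase A (PKA), the main kinase that cyclic AMP (cAMP) switches on, and a group of the phosphodiesterases that degrade cAMP. They are the catalytic subunit genes *PRKACA* and *PRKACB*, the regulatory subunit genes *PRKAR1A*, *PRKAR1B*, *PRKAR2A* and *PRKAR2B*, and the phosphodiesterase genes *PDE4A*, *PDE4B*, *PDE4D* and *PDE7B*. They were found by gene name among the 24596 genes of the count table, and each name matched 1 row. RNA-Seq compared chondrocytes of the superficial zone (SZCs) with chondrocytes of the deep zone (DZCs) of articular cartilage from the knee joints of wild type calves aged 1 to 2 weeks. Newly isolated cells of both zones were grown for 3 days in DMEM/F12 medium with fetal bovine serum, and 2 libraries were sequenced from each zone as single-end reads of 75 bp. Each cartilage core gave a superficial and a deep slice, which were gathered joint by joint, the middle zone was discarded, no further agent is named in the labels of any of these libraries, and the study's methods call the libraries of a zone biological duplicates without saying which animals each one holds.

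PKA is held inactive as a complex of regulatory and catalytic subunits. When cAMP binds the regulatory subunits, the catalytic subunits are set free and phosphorylate their targets, among them the transcription factors of the CREB family. Regulatory subunits are of type I, largely cytosolic, or of type II, which are mostly held at membranes and organelles by A-kinase anchoring proteins. Phosphodiesterases of the PDE4 and PDE7 families are selective for cAMP and set how high and for how long it rises, and the PDE4 enzymes are themselves phosphorylated by PKA. In cartilage, PKA acts below the receptor for parathyroid hormone and its related peptide, which restrains chondrocyte maturation in the growth plate.

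The libraries held between 19918970 and 21890549 counts on genes. Levels are given as CPM, counts scaled to a common library size that TMM corrects for differences in composition, and 3 counts corresponded to between 0.129 and 0.187 CPM. The 7 chondrocyte markers checked, *COL2A1*, *ACAN* and *SOX9* among them, were detected in every library, and their summed level was 118287 and 118921 CPM in the SZC libraries against 473559 and 183629 CPM in the DZC libraries. *COL2A1* held much of that sum, and the other 6 markers came to 53306 and 63406 CPM in SZCs and to 140354 and 64700 CPM in DZCs. The sum in DZC replicate 2 lay near those of SZCs, but its members went both ways. In that library *MATN3*, *COL11A1* and *COL9A1* were above both SZC libraries, and *ACAN*, *SOX9* and *HAPLN1* below both. The summed level of 5 superficial zone markers, *PRG4* among them, was 4754 and 3591 CPM in SZCs and 76.7 and 163 CPM in DZCs, far lower in both libraries labelled DZC. The DZC libraries differed more from each other than the SZC libraries did: the gap between DZC replicates was the larger one for 74.5% of the 12857 genes with enough counts to be tested.

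None of the 10 genes differed between SZCs and DZCs by the exact test of edgeR at a Benjamini-Hochberg false discovery rate (FDR) under 0.05, a threshold that 377 of the 12857 genes tested, or 2.93%, passed. At an unadjusted p under 0.05 the same test found 1 of the 10 genes, *PDE4A*, and 1169 of all genes. The quasi-likelihood test of edgeR and DESeq2 also called 0 of the 10, with 0 and 397 calls among all genes, although 1126 genes had an unadjusted p under 0.05 in the quasi-likelihood test. The fitted log2 fold changes of SZCs over DZCs lay between -1.44 for *PRKAR2B* and 0.89 for *PRKAR1B*, with a median of 0.32 where the median of all genes was -0.04. Of the 10 values, 7 were above 0 and 3 below. With 2 libraries a zone this leaves most differences poorly bounded: the 95% interval lay within a 2-fold change in both directions for 2 of the genes, *PRKACB* and *PRKAR1A*.

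**Figure D1:**
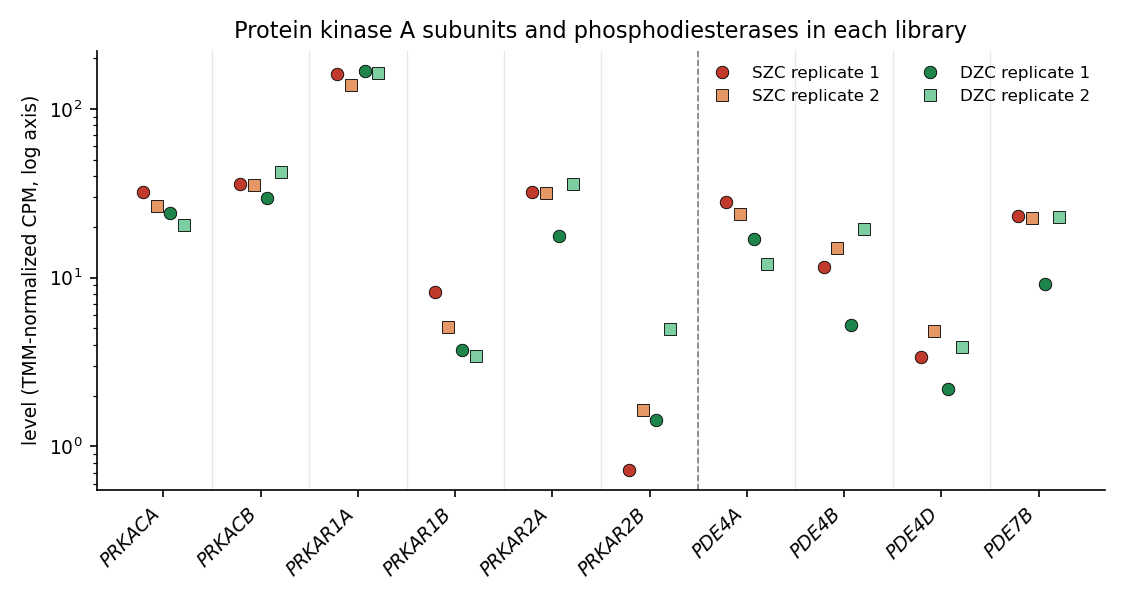
Level of each of the 10 genes in each of the 4 libraries, in TMM-normalized CPM on a log axis. Circles are replicate 1 and squares replicate 2 of SZCs (red and orange) and DZCs (dark and light green), and the dashed line parts the PKA subunits from the phosphodiesterases. The SZC points sit above both DZC points for *PRKACA*, *PRKAR1B* and *PDE4A*, and DZC replicate 1 is the lowest point for 5 genes. Levels of different genes are not corrected for gene length and should not be set against each other.

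*PRKACA* (ENSBTAG00000006642) encodes the alpha form of the catalytic subunit, which most tissues use. Its level was 32.1 and 26.6 CPM in SZCs, and 24.0 and 20.5 CPM in DZCs. Both SZC libraries lay above both DZC libraries, with means of 29.4 ± 3.92 and 22.3 ± 2.46 CPM (SD, n = 2 each). The log2 fold change was 0.40 (SE 0.36), with a 95% interval from -0.31 to 1.10 and an edgeR FDR of 0.933.

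*PRKACB* (ENSBTAG00000011953), the gene of the beta catalytic subunit, was measured at 35.9 and 35.6 CPM in SZCs and at 29.5 and 42.2 CPM in DZCs. The DZC libraries lay on either side of the SZC libraries, so the zones overlapped while their means, 35.8 ± 0.247 and 35.8 ± 8.97 CPM (SD, n = 2 each), could not be told apart. The log2 fold change was -0.0038 (SE 0.37), with a 95% interval from -0.72 to 0.71. This interval was, with those of *PRKACA* and *PRKAR1A*, among the narrowest of the 10.

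*PRKAR1A* (ENSBTAG00000008621) encodes the widely expressed type I regulatory subunit, and it took the most counts of the 10 genes, between 2707 and 3650 a library. Its level was 161 and 138 CPM in SZCs and 168 and 164 CPM in DZCs. The DZC libraries lay just above both SZC libraries under TMM scaling, but with scaling by library totals the zones overlapped, and the log2 fold change then went from -0.15 to 0.15. The 95% interval under TMM was -0.83 to 0.52 and the edgeR FDR was 1.

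*PRKAR1B* (ENSBTAG00000046142), the gene of the second type I subunit, best known from the nervous system, had the largest difference toward SZCs among the 10. It was measured at 8.27 and 5.08 CPM in SZCs and at 3.73 and 3.45 CPM in DZCs, and the zones did not overlap. The means were 6.68 ± 2.25 and 3.59 ± 0.199 CPM (SD, n = 2 each), a fitted ratio of 1.86 and a log2 fold change of 0.89 (SE 0.55, 95% interval -0.19 to 1.98). The edgeR FDR was 0.770, and the SZC libraries differed from each other by 0.70 on the log2 scale, a gap not much smaller than the difference between the zones.

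*PRKAR2A* (ENSBTAG00000014205) encodes the widely expressed type II subunit. It was measured at 32.4 and 31.5 CPM in SZCs and at 17.7 and 36.0 CPM in DZCs. The SZC libraries were alike and lay between the DZC libraries, which differed 2.04-fold. The log2 fold change was 0.25 (SE 0.45, 95% interval -0.63 to 1.14) and the edgeR FDR was 1.

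*PRKAR2B* (ENSBTAG00000014958), the gene of the other type II subunit, which is prominent in fat and brain, had the fewest counts of the 10 genes over all libraries together: 16 and 38 in SZCs, 23 and 111 in DZCs. These correspond to 0.727 and 1.64 CPM in SZCs and to 1.43 and 4.98 CPM in DZCs. DZC replicate 2 stood above the other libraries, while DZC replicate 1 lay between the SZC libraries. The log2 fold change of -1.44 (SE 0.87) had the widest interval of the 10, from -3.13 to 0.26, and an edgeR FDR of 0.764.

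*PDE4A* (ENSBTAG00000012032), which encodes 1 of the cAMP-specific PDE4 enzymes, had the largest difference between the zones among these 4 phosphodiesterases. It was measured at 27.9 and 23.7 CPM in SZCs and at 17.0 and 12.1 CPM in DZCs. Both SZC libraries lay above both DZC libraries, with means of 25.8 ± 3.0 and 14.5 ± 3.45 CPM (SD, n = 2 each). The fitted ratio was 1.78, the log2 fold change 0.83 (SE 0.39) and its 95% interval 0.062 to 1.60. The exact test of edgeR gave p = 0.0366 and an FDR of 0.460, so the difference did not pass once all genes were accounted for.

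*PDE4B* (ENSBTAG00000008636), a form known for its induction by cAMP and by inflammatory signals, was measured at 11.5 and 15.0 CPM in SZCs and at 5.23 and 19.5 CPM in DZCs. The DZC libraries were the lowest and the highest of the 4 and differed 3.73-fold, against a log2 fold change between the zones of 0.10 (SE 0.68, 95% interval -1.23 to 1.43, edgeR FDR 1). *PDE4D* (ENSBTAG00000000494), which encodes the PDE4 form with the most splice variants, was measured at 3.41 and 4.83 CPM in SZCs and at 2.18 and 3.90 CPM in DZCs. Its zones overlapped as well, and its log2 fold change was 0.43 (SE 0.62, 95% interval -0.79 to 1.65, edgeR FDR 0.998).

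*PDE7B* (ENSBTAG00000015888), a high-affinity cAMP phosphodiesterase that the PDE4 inhibitor rolipram does not block, was measured at 23.2 and 22.5 CPM in SZCs and at 9.21 and 22.9 CPM in DZCs. DZC replicate 2 lay with the SZC libraries and DZC replicate 1 lay 2.49-fold below it. The log2 fold change was 0.50 (SE 0.52, 95% interval -0.52 to 1.53) and the edgeR FDR was 0.969. Under scaling by library totals both SZC libraries lay above both DZC libraries, so whether the zones overlapped for this gene depended on the scaling.

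Under TMM scaling the libraries of the zones did not overlap for 4 of the 10 genes. SZCs were higher for 3 (*PRKACA*, *PRKAR1B*, *PDE4A*), where 21.0% of all genes tested had both SZC libraries above both DZC libraries. DZCs were higher for 1 (*PRKAR1A*), where 20.5% of all genes had the opposite order. Either share comes to about 2 of 10 genes, close to the counts seen. All 4 phosphodiesterases had a fitted log2 fold change above 0, with a median of 0.47, and so had 5987 of all 12857 genes tested. The 6 PKA subunits were divided 3 and 3 with a median of 0.12. Without DZC replicate 1, *PDE4B* (-0.55) and *PDE7B* (-0.0028) fell below 0.

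**Figure D2:**
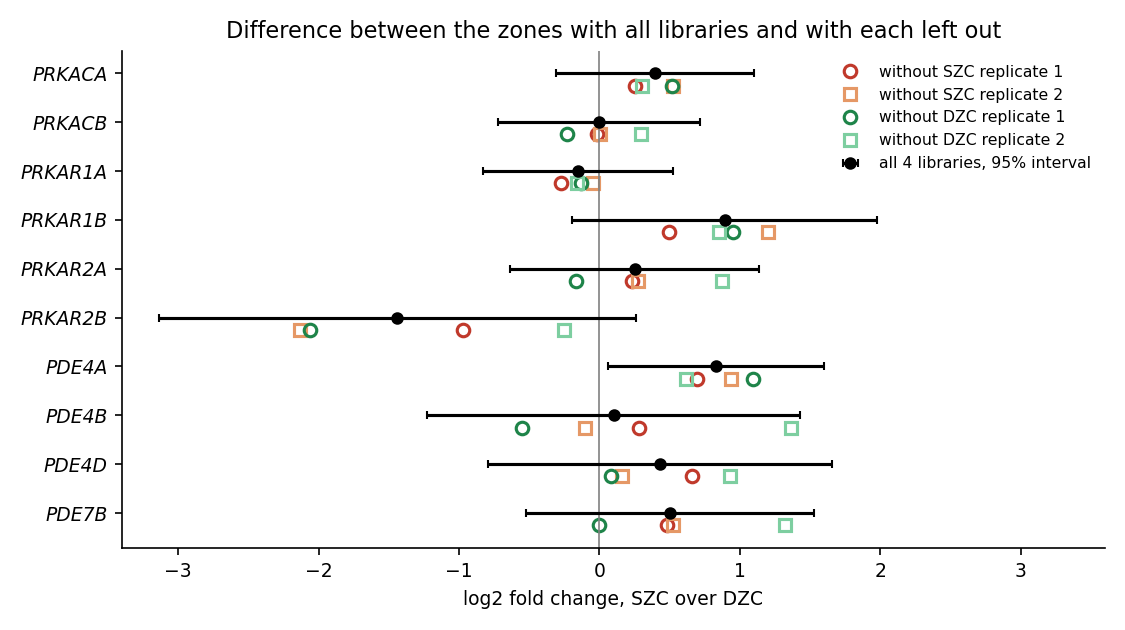
Log2 fold change of SZCs over DZCs for each gene. Black points with bars are the estimates from all 4 libraries with their 95% intervals, and open symbols below them the estimates with 1 library left out (red and orange for SZC replicates 1 and 2, dark and light green for DZC replicates 1 and 2). Every interval but that of *PDE4A* crosses 0, and for *PDE4B*, *PRKAR2B*, *PDE7B* and *PRKAR2A* the estimates without DZC replicate 1 and without DZC replicate 2 lie far apart.

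The differences between the DZC libraries were larger than those between the zones for several of the genes. Going from DZC replicate 1 to replicate 2, *PDE4B* was higher by 1.90 on the log2 scale, *PRKAR2B* by 1.79, *PDE7B* by 1.32, *PRKAR2A* by 1.03, *PDE4D* by 0.84 and *PRKACB* by 0.52. *PRKACA* (-0.23), *PRKAR1A* (-0.04), *PRKAR1B* (-0.11) and *PDE4A* (-0.49) went the other way or stayed level. Of all genes tested, 8.83% had a larger gap between the DZC libraries than *PDE4B*, 9.64% a larger one than *PRKAR2B* and 15.9% a larger one than *PDE7B*. The median gap of the 10 genes was 0.677 in DZCs and 0.255 in SZCs, and over all genes it was 0.567 and 0.245. DZC replicate 1 held the lowest level of the 4 libraries for 5 of the 10 genes (*PRKACB*, *PRKAR2A*, *PDE4B*, *PDE4D*, *PDE7B*), and for 36.5% of all genes.

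**Figure D3:**
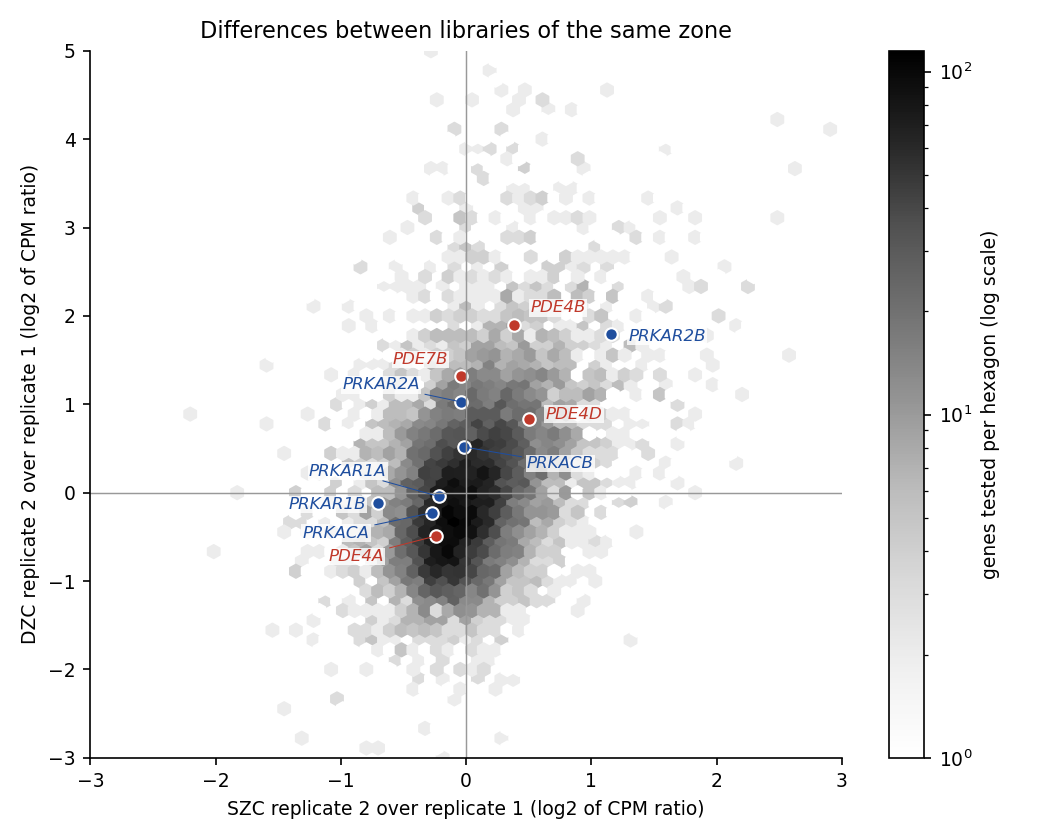
Gap between replicates of each zone, as the log2 ratio of replicate 2 over replicate 1, for SZCs on the horizontal axis and DZCs on the vertical axis. Grey hexagons count all genes tested (12663 of 12857 fall in the plotted range), blue points are PKA subunits and red points phosphodiesterases. *PDE4B*, *PRKAR2B*, *PDE7B* and *PRKAR2A* sit more than 1 log2 unit above 0 on the DZC axis, and of these only *PRKAR2B* is also more than 1 unit from 0 on the SZC axis.

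Which genes passed the threshold therefore turned on which DZC library was kept. Without DZC replicate 1, *PDE4A* was called higher in SZCs (log2 fold change 1.10, SE 0.32, edgeR FDR 0.0196) and *PRKAR2B* higher in DZCs (-2.06, SE 0.68, edgeR FDR 0.0286), so that 2 of 10 passed where 6.67% of all genes did. Without DZC replicate 2, *PDE7B* (1.33, SE 0.33, edgeR FDR 0.00156), *PDE4B* (1.36, SE 0.40, edgeR FDR 0.0114) and *PRKAR2A* (0.87, SE 0.31, edgeR FDR 0.0348) were called higher in SZCs, 3 of 10 where 20.7% of all genes passed. No gene was called in both. Without DZC replicate 1, *PRKAR2A*, *PDE4B* and *PDE7B* had log2 fold changes of -0.17, -0.55 and -0.0028. Without DZC replicate 2, *PRKAR2B* had one of -0.26 (edgeR FDR 0.850) and *PDE4A* one of 0.62 (edgeR FDR 0.170). These fits take the spread from the SZC libraries alone and assume that the lone DZC library varies as they do. Fits without an SZC library take the spread from the DZC libraries alone, which differed more from each other for most genes. Fewer of all genes passed in them than with all libraries. None of the 10 was called there, which says little about these genes.

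Other genes also set the DZC libraries apart. The summed level of 4 genes of cycling cells was 10.9 CPM in DZC replicate 1 and 250 CPM in replicate 2, against 141 and 164 CPM in SZCs, with all 4 higher in replicate 2. Of 8 hypertrophic or bone-forming genes, *SPP1* held most of the level, at 18.9 and 201 CPM in DZCs and 108 and 102 CPM in SZCs. The other 7 summed to 0.187 CPM in DZC replicate 1 and 69.2 CPM in replicate 2, against 2.00 and 1.46 CPM in SZCs. Of all 8, 7 were higher in DZC replicate 2 than in replicate 1, where *COL10A1*, *IBSP*, *MMP13* and *DMP1* were at 0. The summed level of 6 fibroblast or synovial genes was 4414 and 14069 CPM in DZCs against 16983 and 25169 CPM in SZCs, with 5 of 6 higher in replicate 2. *COL1A1*, *COL1A2* and *COL3A1* held most of that sum. *PDPN* went the other way, at 1103 and 762 CPM in DZCs and 492 and 453 CPM in SZCs, and *THY1* overlapped between the zones. Of 4 smooth muscle or pericyte genes, *ACTA2* was at 53.2 and 311 CPM in DZCs and at 11.5 and 93.2 CPM in SZCs, and the other 3 summed to 6.35 and 23.3 CPM in DZCs and to 33.9 and 46.5 CPM in SZCs. All 4 were higher in DZC replicate 2 than in replicate 1, where *RGS5* was at 0. The summed levels of leukocyte (6 genes), endothelial (5 genes) and adipocyte markers (3 of 4 found) stayed between 3.86 and 49.3 CPM, and *PTPRC*, *CD3E*, *CDH5*, *KDR* and *CIDEC* were at 0 in at least 1 library. The part of these differences in the values of the 10 genes was not tested. In such bulk libraries fewer cells of a type and less RNA per cell cannot be told apart.

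Balance among the transcripts was followed as ratios of counts within a library, which do not depend on library scaling. These are ratios of RNA and do not measure the make-up of the enzyme. Gene length cancels when a ratio of single genes is compared between zones, but not in a ratio of summed counts, where the genes with most counts weigh most. The count ratio of *PRKAR1A* to *PRKAR1B* was 4.28 and 4.76 in SZCs and 5.5 and 5.57 in DZCs on the log2 scale. It was lower in both SZC libraries than in both DZC libraries, by 1.01 between the means (4.52 ± 0.34 and 5.53 ± 0.05, SD, n = 2 each). The summed count of the 4 regulatory genes over that of the 2 catalytic genes was 1.57 and 1.5 in SZCs and 1.84 and 1.73 in DZCs on the log2 scale, again without overlap and lower by 0.25 in SZCs, and *PRKAR1A* gave most of the regulatory counts. For both ratios the exact permutation test gave p = 0.33, the smallest that 2 against 2 libraries allow, and 0.762 after adjustment over the 8 ratios computed, so neither can be called.

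The other 6 ratios overlapped between the zones. *PRKACA* to *PRKACB* was -0.16 and -0.42 in SZCs and -0.30 and -1.04 in DZCs, and *PRKAR1A* to *PRKAR2A*, type I over type II, was 2.31 and 2.13 in SZCs and 3.25 and 2.18 in DZCs. *PRKAR1A* to *PRKAR2B* ran from 5.04 in DZC replicate 2 to 7.79 in SZC replicate 1. Among the phosphodiesterases, the ratios of *PDE4A*, *PDE4B* and *PDE7B* to *PDE4D* differed between the zones by 0.37, -0.09 and 0.17 on the log2 scale, less than the gap between the libraries of at least 1 zone in each case. The exact permutation p was between 0.667 and 1 for these 6 ratios.

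**Figure D4:**
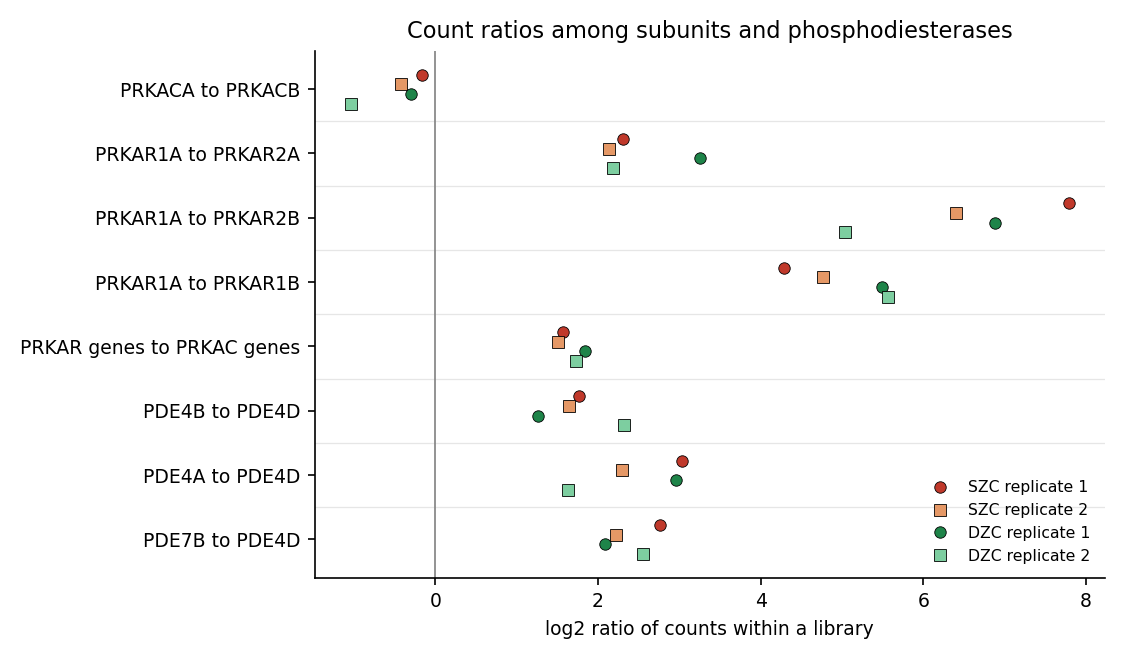
Log2 ratio of counts within each library for 8 pairs or sums of genes, with circles for replicate 1 and squares for replicate 2 of SZCs (red and orange) and DZCs (dark and light green). *PRKAR1A* to *PRKAR1B* and the regulatory to the catalytic genes are the ratios whose SZC and DZC points do not overlap. The place of a ratio along the axis also reflects gene lengths, so only points of the same row can be compared.

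Elsewhere in the cAMP pathway, 108 genes in 9 lists were examined, of which 104 were found by name and 65 had enough counts. Of these 65, 8 passed an edgeR FDR of 0.05, 7 higher in SZCs and 1 higher in DZCs, beside 2.93% of all genes, and 17 had an unadjusted p under 0.05. The median log2 fold change over the 65 was 0.36. Over all genes, fewer calls were made in fits without an SZC library than with all libraries, and more in fits without a DZC library. Calls kept, lost or gained in those fits, here and below, are to be read beside that. The quasi-likelihood test called 0 of the 8, DESeq2 called 8 of the 65, and without SZC replicate 1 none of the pathway genes passed.

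Among 8 tested phosphodiesterases outside the group described, 1 was called. *PDE3B*, an enzyme that cGMP inhibits and that insulin activates in fat and liver, was measured at 37.4 and 33.0 CPM in SZCs and at 3.17 and 6.99 CPM in DZCs, 6.89-fold higher in SZCs (log2 fold change 2.78, SE 0.49, edgeR FDR 1.48e-05). Both SZC libraries lay far above both DZC libraries. The call was kept without either DZC library and without SZC replicate 2, and lost without SZC replicate 1. The log2 fold change was 2.34 and 3.49 without DZC replicates 1 and 2, and 2.69 and 2.88 without SZC replicates 1 and 2. *PDE1A*, activated by calmodulin, was measured at 2.73 and 10.4 CPM in SZCs and at 0.747 and 2.24 CPM in DZCs (log2 fold change 2.12, edgeR FDR 0.360). Its value was 0.86 without SZC replicate 2 and 3.14 without DZC replicate 2, where it was called (edgeR FDR 0.00424). *PDE8A*, a high-affinity enzyme, had a log2 fold change of -0.05.

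Upstream of PKA, 1 of 8 tested receptors that raise cAMP was called. *ADRB1*, the beta-1 adrenergic receptor, had 77 and 48 counts in SZCs and 5 and 2 counts in DZCs (log2 fold change 3.82, SE 0.91, edgeR FDR 0.00452). The call was lost without SZC replicate 1 (3.37) and without SZC replicate 2 (4.13), where the fold change stayed about as large, and kept without DZC replicate 1 (4.88) and without DZC replicate 2 (3.15). *PTGER2*, a receptor for prostaglandin E2, had 29 and 24 counts in SZCs and 2 and 5 in DZCs (log2 fold change 2.67, edgeR FDR 0.0559). It was called with the filter on 1 CPM (edgeR FDR 0.0479) and with a design matrix for the dispersion (edgeR FDR 0.0487), but not by DESeq2 (adjusted p 0.389). *PTH1R*, the parathyroid hormone receptor, was measured at 13.8 and 14.9 CPM in SZCs and at 45.8 and 17.5 CPM in DZCs (log2 fold change -1.14, edgeR FDR 0.459), and its value was -0.29 without DZC replicate 1 and -1.66, a call, without DZC replicate 2. None of 7 tested adenylyl cyclases, which make cAMP, was called, though 3 had an unadjusted p under 0.05. *ADCY3* stood just outside the threshold, at 87.9 and 84.4 CPM in SZCs and 39.6 and 43.2 CPM in DZCs (log2 fold change 1.06, SE 0.33, edgeR FDR 0.0509), and it was called by DESeq2, with the filter on 1 CPM, with a design matrix for the dispersion and without either DZC library. *ADCY2* was measured at 48.4 and 47.0 CPM in SZCs and at 168 and 66.4 CPM in DZCs (log2 fold change -1.30, edgeR FDR 0.234), with -0.47 without DZC replicate 1 and -1.80, a call, without DZC replicate 2.

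None of 5 tested G protein alpha subunits was called, and *GNAI2*, which inhibits adenylyl cyclase, had a log2 fold change of 0.15. The row named *GNAS*, the gene of the stimulatory subunit, held between 1 and 7 counts a library, and since this locus gives several transcripts no level was read from it. Of the partners of PKA itself, none of 12 tested A-kinase anchoring proteins was called, with a median log2 fold change of 0.12. The one with the largest difference was *AKAP13*, at 45.8 and 38.9 CPM in SZCs and 12.4 and 22.7 CPM in DZCs (log2 fold change 1.27, edgeR FDR 0.0976), and it was called without DZC replicate 1 (0.90) and without DZC replicate 2 (1.79). Neither tested protein kinase inhibitor gene was called. *PKIB* was measured at 3.18 and 5.13 CPM in SZCs and at 4.60 and 13.4 CPM in DZCs, and its log2 fold change of -1.12 was -1.68 without DZC replicate 1, where it was called (edgeR FDR 0.00625), and -0.13 without DZC replicate 2. *PKIG* had a log2 fold change of -0.51. Of 4 tested effectors of cAMP other than PKA none was called. *RAPGEF4*, the exchange factor EPAC2, had 144 and 140 counts in SZCs and 5 and 49 in DZCs (log2 fold change 2.30, edgeR FDR 0.254). Its value was 1.52 without DZC replicate 1 and 4.33 without DZC replicate 2, where it was called (edgeR FDR 6.43e-07).

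Downstream, none of 8 tested CREB factors and coactivators was called, with a median log2 fold change of 0.05 and values of 0.69 for *CREBBP* and 0.65 for *EP300*, the coactivators that bind phosphorylated CREB. This list did not include *CREB5*, so its values say nothing about that gene. The paper reports *CREB5* as higher in SZCs than in DZCs, and raises the possibility that PKA regulates the activity of its protein. The largest value of the list was 0.77, for *CRTC3*. Without DZC replicate 2 *EP300* (1.02) and *CRTC3* (1.20) were called, and without DZC replicate 1 their values were 0.37 and 0.46. Of 11 tested genes known to be induced by cAMP, 6 were called, beside 2.93% of all genes tested. Of the 6, 5 were higher in SZCs and 1 higher in DZCs, and the median log2 fold change over the 11 was 0.94. Many of these genes are also induced by growth factors and stress, and the lists were drawn up with earlier results of these data known. The 3 orphan nuclear receptors of the NR4A family were all higher in SZCs: *NR4A1* at 75.2 and 60.0 against 25.7 and 22.2 CPM (log2 fold change 1.5, edgeR FDR 0.00218), *NR4A2* at 60.4 and 60.4 against 9.14 and 21.0 CPM (2.00, edgeR FDR 0.00410) and *NR4A3* at 8.59 and 9.69 against 1.43 and 1.66 CPM (2.56, edgeR FDR 0.000475). *DUSP1*, a phosphatase of MAP kinases, was higher in SZCs at 83.4 and 87.1 against 20.6 and 37.6 CPM (log2 fold change 1.55, edgeR FDR 0.0133). Calls of these 4 genes were kept without either DZC library and lost without either SZC library, where the fold changes stayed about as large: 1.32 and 1.65 for *NR4A1*, 2.00 and 2.00 for *NR4A2*, 2.64 and 2.47 for *NR4A3*, and 1.58 and 1.52 for *DUSP1* without SZC replicates 1 and 2. The call of *DUSP1* was also lost under scaling by library totals (1.78, edgeR FDR 0.0789). Over all fits with 1 library left out, *NR4A2* ran from 1.53 to 2.74 and *DUSP1* from 1.19 to 2.07, while *NR4A1* and *NR4A3* moved less.

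*RGS2*, a regulator that dampens G protein signals, had 10 and 30 counts in SZCs and 1 and 0 in DZCs, a ratio of 34.0 with an exact Clopper-Pearson 95% interval from 5.75 to 1374 that covers counting error only. It was called by the exact test (edgeR FDR 0.0229) but not by DESeq2, and the call was lost without SZC replicate 1 and without DZC replicate 2. The fitted log2 values, which depend on the prior count, were 4.74 with all libraries, 5.27 and 3.71 in those fits, and 7.31 without DZC replicate 1. Without SZC replicate 2, or with the filter on 1 CPM, the gene had too few counts to be tested. *SST*, the somatostatin gene in which the cAMP response element was first studied, had 12 and 29 counts in SZCs and 100 and 94 in DZCs (log2 fold change -2.53, SE 0.69, edgeR FDR 0.0246), and this call was kept without either DZC library and lost without SZC replicate 1 (-2.06) and without SZC replicate 2 (-3.24), as well as under scaling by library totals (-2.17, edgeR FDR 0.151). *FOS*, an immediate early gene, was measured at 162 and 44.2 CPM in SZCs and at 58.8 and 57.2 CPM in DZCs, so its zones overlapped and its log2 fold change of 0.83 was not called.

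**Figure D5:**
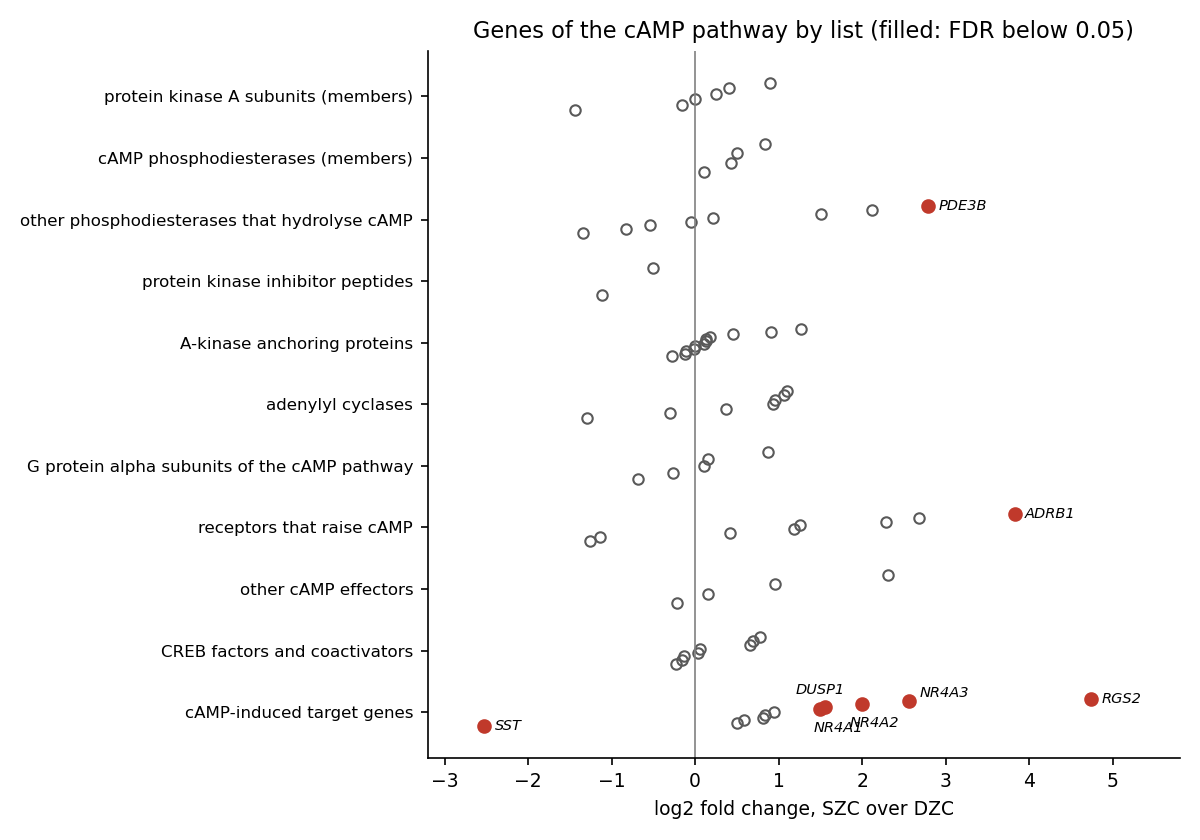
Log2 fold change of SZCs over DZCs for every tested gene of the cAMP pathway, in 1 row for each list, with filled and named points for an edgeR FDR below 0.05. All points of the PKA subunits and of the 4 phosphodiesterases described are open, and 6 of the 8 filled points are in the row of cAMP-induced target genes. The fitted value of *RGS2*, which has 0 counts in 1 DZC library, depends on the prior count of the fit.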

How the data were processed

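RNA was read from 4 libraries, 2 of SZCs and 2 of DZCs. The authors made the libraries with the SMART-Seq v4 kit for low RNA input, aligned reads with STAR 2.5.2b to the cow genome (Ensembl build UMD 3.1, release 88), and deposited counts per gene without normalization and without regard to strand. Reads from stretches that overlapping genes share can therefore not be told apart. Overlap was counted here between whole gene spans, and overlap of exons was not examined. In RefSeq (ARS-UCD2.0, used for names and neighbours only), 8 of the 10 genes are overlapped by another gene, 3 of them by a protein-coding one: *PRKACA* by *SMIM46*, *PRKAR2A* by *LOC786363* and *PDE4B* by *MGC137454*. The authors' table of their own comparison (fold changes and FDR) gave 8 gene names for blank entries and nothing else. The ATAC-Seq libraries were not used here.

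TMM scaling, the default filter on low counts, dispersion estimates with default settings and the tests were run in edgeR 4.0.16 (R 4.3.3). The exact test set SZCs against DZCs, with Benjamini-Hochberg adjustment over all 12857 genes tested. Each standard error was derived from a negative binomial variance at the dispersion of that gene, and intervals are 95%. Gaps between replicates are log2 ratios of CPM with 0.01 CPM added. Ratios were compared by an exact two-sided permutation test over libraries. With 2 libraries a zone, p-values measure only the spread between these libraries, and in edgeR the estimate of that spread is partly shared across genes. Library totals were between 19918970 and 21890549 counts.

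Alternatives were the quasi-likelihood test, DESeq2 1.42.0, the quasi-likelihood test with a replicate block, DESeq2 size factors, scaling by library totals, testing without a filter, keeping genes above 1 CPM in 2 or more libraries, each library left out in turn, and, chosen after seeing the data, dispersion estimated with a design matrix. The 10 genes and all lists were chosen with earlier results of these data known. Named genes are the 10 themselves, every list gene with an FDR under 0.05, and from each list the 2 highest and the 2 with the largest fold change; the text gives a selection of these. The scripts were tested on simulated data.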

Additional observations from a re-analysis of the deposited data

How the results depend on the processing

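None of the 10 genes was called under any setting with all 4 libraries. Leaving out 1 library called between 0 and 3 of them, and between 58 and 2725 of all genes (52 to 1607 higher in SZCs, 6 to 1118 higher in DZCs) and 0 to 20 of the pathway genes. Genes called numbered 377 in the exact test of edgeR (287 higher in SZCs, 90 in DZCs), 397 by DESeq2, 361 without a filter, 368 with the filter on CPM, 377 with DESeq2 size factors and 388 with a design matrix for the dispersion. The quasi-likelihood test of edgeR called 0 genes in either direction, 0 of the pathway genes among them, with 1126 genes at an unadjusted p under 0.05, and the cause was not tested. Scaling by library totals raised the median log2 fold change of all genes by 0.30 and the share of calls higher in SZCs from 76.1% to 86.7%, with 44 calls higher in DZCs. It turned the direction of *PRKACB* (0.25), *PRKAR1A* (0.15), *PDE8A* (0.26), *EZR* (0.25), *GNAI3* (0.051) and *HCN4* (0.18), all within 0.30 of 0 and none called. *PRKACB* also turned without a filter (0.0029). Scaling by totals also lost the calls of *DUSP1* (1.78, against 1.55) and *SST* (-2.17, against -2.53), and DESeq2 that of *RGS2*. Pathway genes called rose from 8 to 9 with the filter on CPM and to 10 with a design matrix, *ADCY3* and *PTGER2* among them.

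With 1 library left out, log2 fold changes ran across 0 for *PRKACB* (-0.23 to 0.29), *PRKAR2A* (-0.17 to 0.87), *PDE4B* (-0.55 to 1.36), *PDE7B* (-0.0028 to 1.33), *PDE8A* (-0.14 to 0.039), *AKAP9* (-0.16 to 0.52), *EZR* (-0.43 to 0.31), *GNAI2* (-0.12 to 0.52), *HCN2* (-0.027 to 0.33), *HCN4* (-0.67 to 0.46) and *FOS* (-0.40 to 1.48). The difference of the *PRKAR1A* to *PRKAR1B* ratio stayed between -1.25 and -0.77, and that of regulatory to catalytic genes between -0.30 and -0.19. The differences of *PRKACA* to *PRKACB* (0.0049 to 0.75) and *PRKAR1A* to *PRKAR2B* (0.21 to 2.05) stayed above 0. Those of *PRKAR1A* to *PRKAR2A* (-1.03 to 0.035), *PDE4B* to *PDE4D* (-0.62 to 0.44), *PDE4A* to *PDE4D* (-0.30 to 1.03) and *PDE7B* to *PDE4D* (-0.098 to 0.45) crossed 0.

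The labels of both zones carry the numbers 1 and 2, and each cartilage core gave tissue of either zone, but no source used here says that same-numbered libraries come from the same joint or animal. Deviations from the zone means correlated at 0.42 across genes between same-numbered libraries. A quasi-likelihood fit with a replicate block called 347 genes (262 higher in SZCs, 85 in DZCs), none of the 10 and 6 of the pathway genes (*RGS2* and *SST* were lost), and *PRKACB* had a log2 fold change of 0.0188.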
